A study of Homo sapiens with 12 samples.

Results

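The genes described here encode the HLA class I molecules and the proteins that supply them with peptides: HLA-B, HLA-C, HLA-E, HLA-F, B2M, TAP1, TAP2, TAPBP and PSMB9. They were chosen by name from the deposited gene tables and make up 9 of the 60504 listed genes. The 12 RNA-seq libraries came from the established human cell line T24, derived from a bladder cancer, and were made to ask how gene expression differs when the level of U11, a small nuclear RNA of the minor spliceosome, is altered. In the knockout comparison, 2 libraries carried the label U11 knockout and 2 controls the label untreated. In the overexpression comparison, 6 libraries carried the label U11 overexpression (2 under each of the line labels 79, 86 and 87) and 2 controls the label untreated. In the study's methods, knockout cells were transfected with pX330 plasmids carrying Cas9 and 2 guide RNAs against U11, selected with puromycin and taken forward as monoclonal lines, and overexpressing cells were stably transfected with a pcDNA-U11 plasmid. The sources do not say what the line labels stand for or which monoclonal lines were sequenced, so a property of a clone and an effect of U11 cannot be told apart. The labels do not say that the libraries of a group came from separate cultures, and the P-values then measure only the spread between these libraries.

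A class I molecule consists of a heavy chain, encoded by an HLA class I gene, and the light chain beta-2-microglobulin, encoded by B2M. Peptides are cut from cytosolic proteins by the proteasome, carried into the endoplasmic reticulum by the TAP1-TAP2 transporter and loaded onto the heavy chain with the help of tapasin, the product of TAPBP. The loaded molecule is shown at the cell surface to CD8+ T cells and natural killer cells, and bladder tumours, like other carcinomas, can carry low levels of it. PSMB9 encodes a catalytic subunit of the immunoproteasome, the form of the proteasome that takes the place of the constitutive one after interferon-gamma.

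All of the genes except B2M lie in the major histocompatibility complex on chromosome 6 of hg38. B2M (ENSG00000166710) lies on chromosome 15 from 44711477 to 44718877 on the plus strand. On chromosome 6 the deposited tables place HLA-F (ENSG00000204642) at 29722775 to 29738528 and HLA-E (ENSG00000204592) at 30489467 to 30494205, both on the plus strand. HLA-C (ENSG00000204525) lies at 31268749 to 31272130 and HLA-B (ENSG00000234745) at 31353872 to 31357188, both on the minus strand. TAP2 (ENSG00000204267) lies at 32821833 to 32838780 on the minus strand. TAP1 (ENSG00000168394) lies at 32845209 to 32853978 on the minus strand, inside the span of PSMB9 (ENSG00000240065), which runs from 32844136 to 32859585 on the plus strand. TAPBP (ENSG00000231925) lies at 33299694 to 33314387 on the minus strand. TAP2 overlaps XXbac-BPG246D15.9 on the same strand, which had at most 1.39 TPM in any library. HLA-F overlaps the antisense gene HLA-F-AS1, and PSMB9 overlaps TAP1, PSMB8 and PSMB8-AS1. Whether the expression values were estimated by strand is not given in the sources used here, so reads of such overlapping genes cannot be told apart.

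The promoters of the 3 heavy chain genes with a RefSeq window, and that of the light chain, are shown because these genes encode the chains of the class I molecule. Windows from RefSeq on GRCh38.p14 (250 bases before and 50 after the start of the gene) were found for 8 of the 9 genes, and HLA-E had no entry. The stretches below lie before the start and are written 5′ to 3′ on the strand of the gene. Capitals mark matches, on either strand, to TTTCNNTT (a form of the interferon-stimulated response element), GGGGATTC (a form of the NF-kappa B site), TGACGC (part of the X2 box) and ATTGG (the inverted CCAAT box).
HLA-B (chr6:31357225-31357362, minus strand): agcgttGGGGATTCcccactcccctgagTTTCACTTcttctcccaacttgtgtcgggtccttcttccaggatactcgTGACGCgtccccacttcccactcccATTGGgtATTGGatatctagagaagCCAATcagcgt
HLA-C (chr6:31272138-31272290, minus strand): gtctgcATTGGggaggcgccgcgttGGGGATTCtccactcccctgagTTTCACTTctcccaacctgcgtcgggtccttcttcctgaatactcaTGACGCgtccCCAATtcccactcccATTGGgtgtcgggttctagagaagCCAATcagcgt
HLA-F (chr6:29723272-29723387, plus strand): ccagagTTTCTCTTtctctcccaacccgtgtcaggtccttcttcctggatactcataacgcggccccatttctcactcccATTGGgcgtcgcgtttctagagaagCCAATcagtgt
B2M (chr15:44711369-44711478, plus strand): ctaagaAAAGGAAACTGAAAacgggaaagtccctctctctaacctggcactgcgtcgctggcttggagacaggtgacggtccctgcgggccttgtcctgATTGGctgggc
HLA-B and HLA-C held all 4 motifs, in the same order from GGGGATTC to the last CCAAT. The HLA-F window held TTTCTCTT and the CCAAT boxes but neither GGGGATTC nor TGACGC. The B2M stretch held 2 overlapping matches to TTTCNNTT, read on the other strand, and 1 ATTGG. Among all 35116 RefSeq windows of this length, GGGGATTC was in 0.772%, TGACGC in 7.67%, TTTCNNTT in 20.3% and ATTGG in 32%. TTTCNNTT was in the windows of 7 of the 8 genes, HLA-B, HLA-C, HLA-F, B2M, TAP1, TAP2 and TAPBP, with PSMB9 as the exception. These matches describe the letters in the windows and were not tested for binding.

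Levels are given in TPM, the Stringtie estimate of transcript abundance per length, scaled to the same total in every library. Between 9.07 and 15.33 gigabases of aligned sequence lay behind each library. The 10 most abundant genes held 45.5% to 49.6% of all TPM in the libraries of the knockout comparison and 7.1% to 7.6% in those of the overexpression comparison, so each group was compared only with the controls of its own comparison. The TPM of U11 was summed over its gene entries, and how completely these libraries capture this small nuclear RNA was not measured. In the knockout comparison the control libraries had 21.4 and 23.8 TPM of U11, and the libraries labelled U11 knockout had 31.6 and 37.4 TPM. In TPM, U11 thus went against the knockout label, and every direction given for these libraries rests on that label. By quantitative PCR the study reported less U11 in its knockout line and more in its overexpressing line than in wild-type T24 cells. Of 6 epithelial and T24 markers, 5 were at 1 TPM or more in all 12 libraries, and of 6 urothelial markers 2 were, with the uroplakin genes UPK1B, UPK2 and UPK3A at or near 0. The summed level of the 5 leukocyte markers was 0.274 to 3.51 TPM per library.

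In the overexpression comparison, the heavy chain gene HLA-B was called lower under all 3 line labels. HLA-C and PSMB9 were called lower under line labels 79 and 86, and B2M and TAP1 under line label 79. HLA-F was called lower under 86 and 87, but with an adjusted P above 0.05 (limma). Genes were tested with limma on log2(TPM + 1), and a gene was called when the unadjusted P was under 0.05 and the fold change at least 1.5. With the 6 libraries as one arm, 3 of the 9 genes were called lower (HLA-B, HLA-C and HLA-F), against 1.16% of the 15768 genes tested, and none was called higher. None of the 3 passed an adjusted P of 0.05 (limma, Benjamini-Hochberg over all genes). At an unadjusted P of 0.05 with no fold threshold, 4 genes were lower (HLA-B, HLA-C, HLA-F and TAP1), against 3.18% of all genes. All 9 log2 fold changes were below 0, with a median of -0.48 against -0.017 over all genes tested. In 4 genes (HLA-B, HLA-C, HLA-F and TAP1) each of the 6 libraries was below both controls, as in 5.24% of all genes, and in none was each above both controls, as in 4.62% of all genes.

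**Figure D1:**
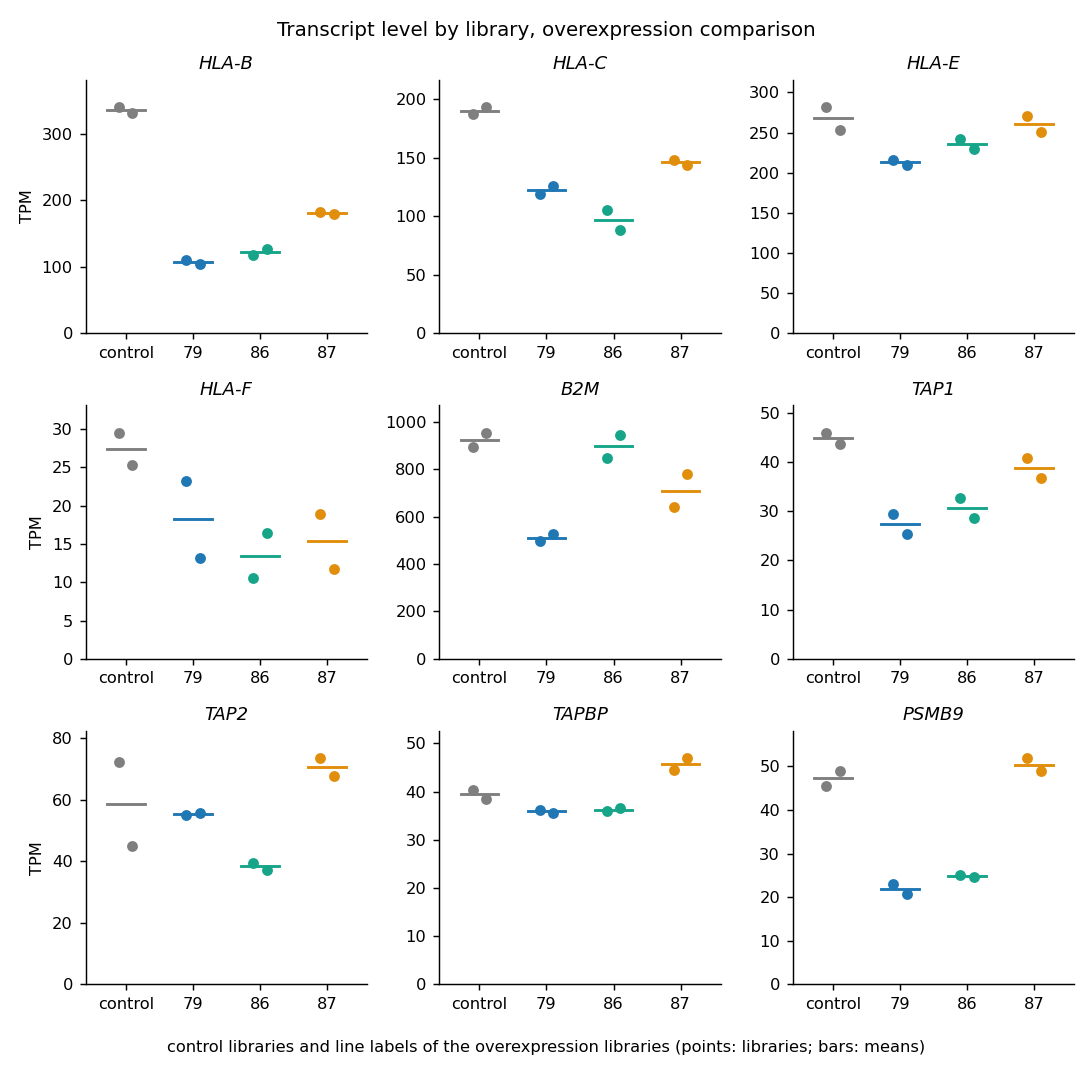
TPM of the 9 genes in the 8 libraries of the overexpression comparison, with one panel per gene and a linear axis from 0. Points are single libraries and bars are group means (n = 2 per group). HLA-B lay between 104.6 and 181.8 TPM under the line labels and at 330.8 and 340.2 TPM in the controls, whereas PSMB9 under line label 87 stood at 48.92 and 51.85 TPM against 45.45 and 48.95 TPM in the controls.

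HLA-B, a classical heavy chain that presents peptides to T cells, stood at 340.2 and 330.8 TPM in the controls. It stood at 110.4 and 104.6 TPM under line label 79, at 117.5 and 126.7 TPM under 86 and at 181.8 and 179.9 TPM under 87. The groups did not overlap, and the means of the line labels were 3.12-fold, 2.75-fold and 1.86-fold below the control mean. The log2 fold change over all 6 libraries was -1.32 (standard error 0.22, limma adjusted P = 0.0967). It was -1.63 for line label 79 (standard error 0.07, limma adjusted P = 0.000131), -1.45 for 86 (limma adjusted P = 0.00096) and -0.89 for 87 (limma adjusted P = 0.00155). The 2 library batches, read from the prefixes of the sample titles, each held 1 control and 1 library per line label. Within them the mean log2 difference of HLA-B was -1.35 and -1.30.

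HLA-C, the other classical heavy chain of the group, was at 186.9 and 193.3 TPM in the controls. Line label 79 had 118.6 and 125.5 TPM, line label 86 had 105.6 and 88.33 TPM and line label 87 had 148.1 and 143.5 TPM. Every library was thus below both controls, but the order of the line labels was not that of HLA-B, since the lowest HLA-C was under 86. Its log2 fold change was -0.66 over all 6 libraries (standard error 0.18, limma adjusted P = 0.475), with within-batch means of -0.60 and -0.72. Against the controls it was -0.64 for line label 79 (limma adjusted P = 0.0104), -0.97 for 86 (limma adjusted P = 0.00767) and -0.38 for 87 (limma adjusted P = 0.0942). Without the second library of line label 86, the value over the remaining 5 libraries was -0.57 and HLA-C was no longer called.

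HLA-E and HLA-F are nonclassical heavy chains, and HLA-E is a ligand of the NKG2A receptor of natural killer cells. HLA-E was at 282.0 and 253.6 TPM in the controls, at 216.4 and 210.1 TPM under line label 79, at 241.4 and 230.0 TPM under 86 and at 270.9 and 251.0 TPM under 87. Line label 87 overlapped the controls. HLA-E was not called for any line label, and its log2 fold change for 79 was -0.33 (limma adjusted P = 0.047), less than the fold threshold.

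HLA-F was the least abundant heavy chain, at 29.56 and 25.38 TPM in the controls. It stood at 23.27 and 13.22 TPM under line label 79, at 10.53 and 16.42 TPM under 86 and at 18.93 and 11.78 TPM under 87. All 6 libraries were below both controls, but libraries of the same line label differed widely. The log2 fold change was -0.82 over the 6 libraries (standard error 0.27, limma adjusted P = 0.611), -0.79 and -0.85 within the batches, and no longer called without the first control (-0.71). The 3 line labels gave -0.61, -1.003 and -0.83, of which 86 and 87 were called (limma adjusted P = 0.269 and 0.27). The call for 86 was lost with no filter, without the first control (-0.90) and without the first library of 86 (-0.70). The call for 87 held in 10 of the 18 alternatives that kept the thresholds and was lost with the library batch block.

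B2M, the light chain shared by all class I molecules, was the most abundant of the 9 transcripts, at 891.9 and 954.8 TPM in the controls. Under line label 79 it stood at 495.4 and 524.8 TPM, 1.81-fold below the control mean. Line label 86 had 848.7 and 945.2 TPM, overlapping the controls, and line label 87 had 638.7 and 781.2 TPM. The log2 fold change was -0.85 for 79 (standard error 0.11, limma adjusted P = 0.00668), -0.04 for 86 (95% confidence interval -0.31 to 0.22) and -0.39 for 87 (limma adjusted P = 0.128). Over all 6 libraries it was -0.43 (limma adjusted P = 0.898).

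TAP1, a subunit of the peptide transporter, was at 45.99 and 43.75 TPM in the controls, at 29.47 and 25.44 TPM under line label 79, at 32.65 and 28.56 TPM under 86 and at 40.75 and 36.65 TPM under 87. All 6 libraries were below both controls, and the log2 fold change over them was -0.48 (unadjusted P = 0.0172 and adjusted P = 0.654 by limma), less than the fold threshold. For line label 79 it was -0.69 (standard error 0.11, limma adjusted P = 0.0132), and for 86 and 87 it was -0.54 and -0.21 (limma adjusted P = 0.0773 and 0.389). TAP2, its partner, did not follow this order, with 72.33 and 45.04 TPM in the controls, 55.04 and 55.56 TPM under 79, 39.41 and 37.17 TPM under 86 and 73.41 and 67.77 TPM under 87. The controls of TAP2 differed from each other by more than line label 79 differed from their mean. In the deposited coverage (aligned bases per position) divided by the gigabases of each library, the same controls stood at 16.19 and 14.81. The within-batch differences of TAP2 had opposite signs, -0.41 and 0.20. Of the 100-base stretches of the TAP2 transcript 34.7% also occur in transcripts of other genes, against 0.612% or less for the other 8. The TPM of TAP2 is uncertain, and the part of these stretches in it was not tested.

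TAPBP, which encodes tapasin, kept within a narrow range, from 35.55 to 46.91 TPM under the line labels and at 40.31 and 38.48 TPM in the controls. Line label 87, at 44.49 and 46.91 TPM, lay above both controls, and line labels 79 and 86 lay below them. The log2 fold changes were -0.13, -0.12 and 0.21 for 79, 86 and 87, none of them called. PSMB9, the immunoproteasome subunit, was at 45.45 and 48.95 TPM in the controls, against 51.85 and 48.92 TPM under line label 87. It stood at 22.96 and 20.64 TPM under 79 and at 25.01 and 24.51 TPM under 86. The log2 fold change was -1.08 for 79 (standard error 0.08, limma adjusted P = 0.00113), -0.90 for 86 (limma adjusted P = 0.00657) and 0.09 for 87 (95% confidence interval -0.11 to 0.29). Over the 6 libraries together PSMB9 was not called (-0.63, limma adjusted P = 0.898).

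Counted by line label, 5 of the 9 genes were called lower under 79 (B2M, HLA-B, HLA-C, PSMB9 and TAP1), against 5.52% of all genes tested. All 5 also had an adjusted P under 0.05 (limma), as 3.99% of all genes did at the same fold. Under 86, 4 genes were called lower (HLA-B, HLA-C, HLA-F and PSMB9) against 2.01% of all genes, and 3 of them after adjustment against 0.780%. Under 87, 2 genes were called lower (HLA-B and HLA-F) against 3.05% of all genes, and HLA-B alone after adjustment against 1.55%. No member was called higher under any line label. The 3 counts share the same 2 controls. The median log2 fold change of the 9 genes was -0.64, -0.56 and -0.21 for 79, 86 and 87, beside medians of -0.030, 0.010 and -0.009 over all genes.

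**Figure D2:**
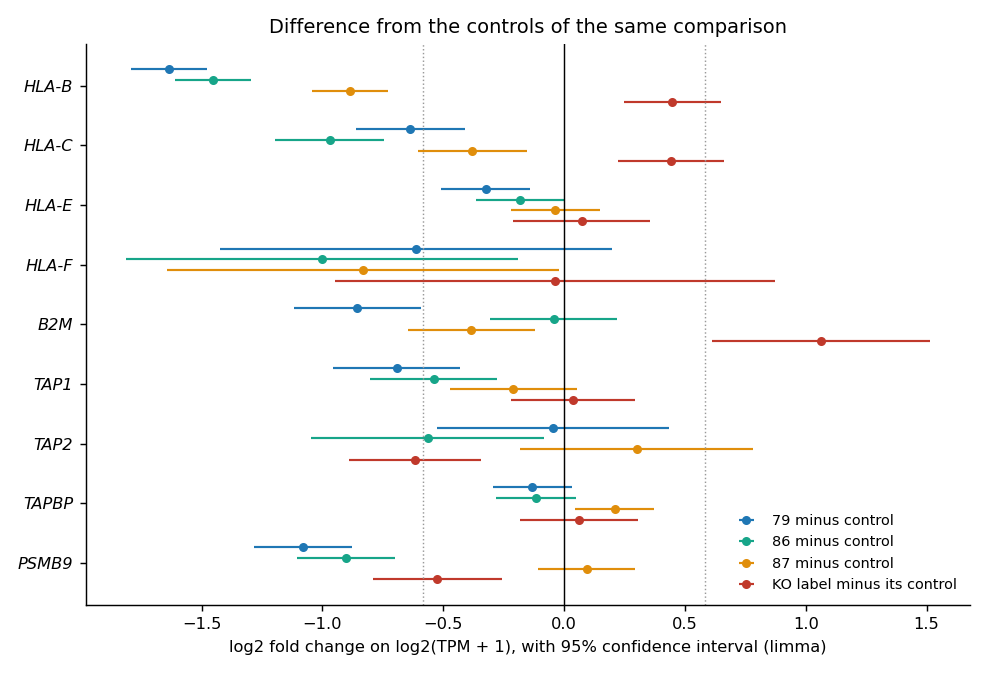
Log2 fold change of each gene on the log2(TPM + 1) scale, for the 3 line labels and the libraries labelled U11 knockout, each against the controls of its own comparison. Bars are 95% confidence intervals from limma and dotted lines mark a fold change of 1.5. HLA-B ran from -1.63 to -0.89 under the line labels and was at 0.45 under the knockout label, and the intervals of HLA-F were the widest.

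The line labels also differed from each other. A limma F test over the 3 line labels gave an adjusted P under 0.05 for 5 of the 9 genes, against 16.0% of all genes. They were PSMB9 (adjusted P = 0.00107), HLA-B (0.00231), B2M (0.0106), HLA-C (0.0188) and TAPBP (0.0279), by limma. PSMB9 was higher under 87 than under 79 by 1.17 on the log2 scale (limma adjusted P = 0.000834) and than under 86 by 0.996 (limma adjusted P = 0.00232). HLA-B was likewise higher under 87, by 0.75 against 79 (limma adjusted P = 0.00167) and by 0.56 against 86 (limma adjusted P = 0.00694). B2M separated 86 from 79, with 86 higher by 0.81 (limma adjusted P = 0.00644), while HLA-B and PSMB9 missed the adjusted threshold between these labels. HLA-B was higher under 86 by 0.18 (95% confidence interval 0.02 to 0.34, limma adjusted P = 0.133) and its libraries did not overlap, and PSMB9 was higher by 0.18 (95% confidence interval -0.03 to 0.38, limma adjusted P = 0.239). B2M was also higher under 87 than under 79, by 0.47 (limma adjusted P = 0.0439). HLA-C was higher under 87 than under 86 by 0.59 (limma adjusted P = 0.018). TAPBP was higher under 87 than under 79 by 0.34 and than under 86 by 0.33 (limma adjusted P = 0.0272 and 0.0436). TAP1 (limma adjusted P = 0.0587), TAP2 (0.0654), HLA-E (0.1) and HLA-F (0.695) did not pass the F test, although TAP1 was higher under 87 than under 79 by 0.48 (limma adjusted P = 0.0407).

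The U11 level also differed by line label. U11 had 0.0334 and 0.623 TPM in the controls, 0.183 and 0.412 TPM under 79, 3.98 and 3.72 TPM under 86 and 61.9 and 53.6 TPM under 87. The controls of the knockout comparison, also labelled untreated, had 21.4 and 23.8 TPM, so U11 TPM differed widely between untreated libraries. The reason was not tested, and U11 TPM may not give the U11 content of the cells. Line label 79, whose U11 TPM lay within that of the overexpression controls, had the lowest HLA-B, HLA-E, B2M, TAP1, TAPBP and PSMB9 by mean. Line label 87, with the most U11 TPM, had the highest HLA-B, HLA-C, HLA-E, TAP1, TAP2, TAPBP and PSMB9 among the line labels. With 3 line labels this order was not tested. Some markers differed by line label too. GATA3, a urothelial transcription factor, fell under 87 from 17.4 and 13.6 TPM to 6.78 and 6.31 TPM (limma adjusted P = 0.0158). CDH5, 1 of 3 endothelial markers, was at 34.1 and 32.2 TPM under 79 and between 3.08 and 5.28 TPM in the other 6 libraries, while PECAM1 and VWF stayed at or under 0.297 TPM in every library. The part of these markers in the result was not tested. The leukocyte markers summed to between 0.274 and 1.18 TPM in the first library batch and between 3.06 and 3.51 TPM in the second. The part of this in the result was not tested either. In bulk RNA, fewer cells that express a gene and less RNA per cell cannot be told apart.

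The balance between the chains was described by ratios of TPM within a library, with no test. HLA-B was 1.82 and 1.71 times HLA-C in the controls, 0.931 and 0.833 times under line label 79, 1.11 and 1.43 times under 86 and 1.23 and 1.25 times under 87. All 6 ratios lay below both controls. B2M per summed heavy chain (HLA-B, HLA-C, HLA-E and HLA-F) was 1.06 and 1.19 in the controls, 1.06 and 1.16 under 79 and 1.03 and 1.33 under 87. Under 86 it was 1.79 and 2.05, above all other libraries of the comparison. PSMB9 relative to PSMB6, the constitutive subunit whose place it takes, was 0.2 and 0.205 in the controls and 0.183 and 0.202 under 87. It was 0.0875 and 0.082 under 79 and 0.1 and 0.113 under 86. PSMB8 per PSMB5, another such pair, was 0.976 and 0.438 in the controls and 1.1 and 0.986 under 87. It was 0.715 and 0.69 under 79 and 0.541 and 0.707 under 86. PSMB5 itself was at 95.4 and 205 TPM in the controls, so the control ratios of this pair differed with it. PSMB10 per PSMB7 was 0.168 and 0.158 in the controls and 0.135 and 0.124 under 87. It was 0.0959 and 0.0892 under 79, but 0.234 and 0.17 under 86, above both controls. PSMB10 itself was not higher under 86, at 69.1 and 49.5 TPM against 71.7 and 70.0 TPM in the controls. PSMB7 was lower there, at 296 and 291 TPM against 426 and 442 TPM.

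**Figure D3:**
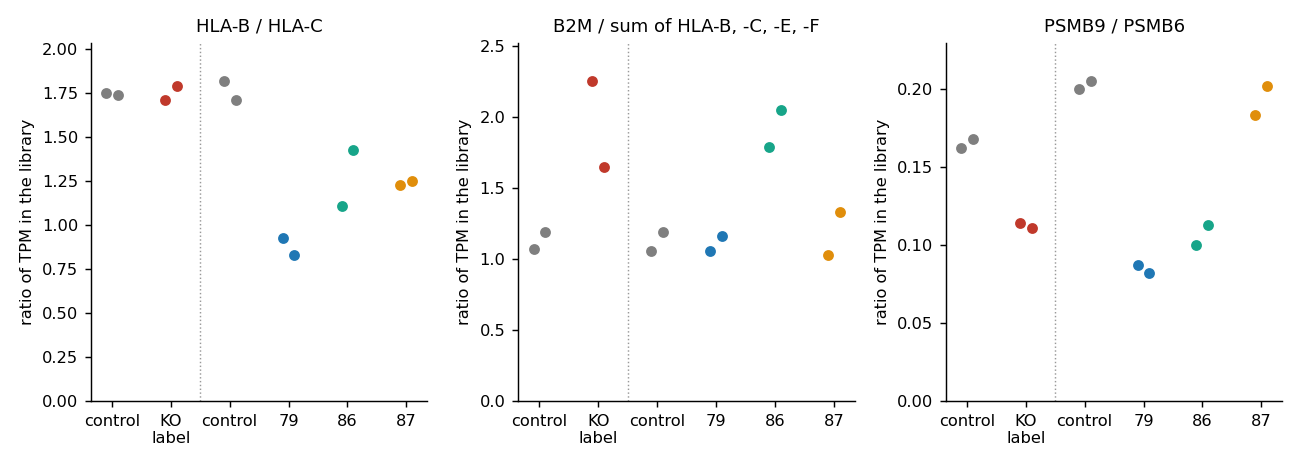
Ratios of TPM within each of the 12 libraries: HLA-B to HLA-C, B2M to the sum of HLA-B, HLA-C, HLA-E and HLA-F, and PSMB9 to PSMB6. Points are libraries and the dotted line separates the knockout comparison (left) from the overexpression comparison (right). HLA-B to HLA-C was between 1.71 and 1.79 under the knockout label and between 0.833 and 1.43 under the line labels.

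In the libraries labelled U11 knockout, B2M was called higher and TAP2 lower, and HLA-B and HLA-C were higher by less than the fold threshold. The count was 1 of 9 genes called higher, against 8.61% of the 14356 genes tested, and 1 of 9 called lower, against 3.15%. Without the fold threshold, 4 genes passed an adjusted P of 0.05 (limma), namely B2M, HLA-B, HLA-C and TAP2, against 7.82% of all genes. In 4 genes (HLA-B, HLA-C, B2M and TAPBP) both libraries were above both controls, as in 39.9% of all genes, and in 2 genes (TAP2 and PSMB9) both were below, as in 20.4%. The median log2 fold change of the 9 genes was 0.06, beside 0.108 over all genes. With median ratio scaling the median of all genes was -0.018.

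B2M was at 319.8 and 331.4 TPM in the controls, against 810.9 and 573.3 TPM under the knockout label, a ratio of means of 2.13. The groups did not overlap, although the labelled libraries differed from each other by more than the controls did. The log2 fold change was 1.06 (standard error 0.17, limma adjusted P = 0.0371), and it ranged from 0.81 to 1.31 over the alternative settings. The limma adjusted P of B2M was 0.322 with no filter and 0.0681 with a replicate block. It was under 0.05 in the other alternatives that kept every library. HLA-B was at 103.5 and 101.5 TPM in the controls, against 140.6 and 139.7 TPM under the knockout label, with a log2 fold change of 0.45 (standard error 0.08, limma adjusted P = 0.0412). HLA-C was at 58.99 and 58.43 TPM in the controls, against 82.01 and 78.15 TPM under the label, with a log2 fold change of 0.44 (standard error 0.09, limma adjusted P = 0.0492). Neither passed adjustment with median ratio scaling, where their log2 fold changes were 0.30 and 0.29 (limma adjusted P = 0.199 and 0.18, within a range over the alternatives of 0.00203 to 0.201 for HLA-B and 0.0102 to 0.218 for HLA-C).

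TAP2 was at 14.79 and 14.96 TPM in the controls, against 9.413 and 9.29 TPM under the knockout label, with a log2 fold change of -0.62 (standard error 0.11, limma adjusted P = 0.0404). In scaled coverage it was 6.439 and 6.336 against 5.017 and 5.268, a log2 fold change of -0.31 that was not called. PSMB9 was at 23.78 and 22.64 TPM in the controls, against 16.26 and 15.4 TPM under the label, with a log2 fold change of -0.52 (limma adjusted P = 0.051). It missed the fold threshold, and it was called with FPKM, median ratio scaling and quantile normalization, where it was between -0.67 and -0.61. PSMB9 per PSMB6 was 0.162 and 0.168 in the controls and 0.114 and 0.111 under the label. PSMB8 per PSMB5 was 0.761 and 0.658 in the controls and 0.735 and 0.696 under the label. PSMB10 per PSMB7 was 0.0903 and 0.0878 in the controls and 0.0816 and 0.0836 under the label.

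HLA-E was at 120.9 and 109.4 TPM in the controls, against 129.8 and 112.9 TPM under the knockout label. HLA-F was at 15.52 and 10.32 TPM in the controls, against 8.775 and 17.17 TPM under the label, so that the labelled libraries lay on both sides of the controls. TAP1, at 19.83 and 20.02 TPM against 20.88 and 20.01 TPM, and TAPBP, at 38.05 and 38.86 TPM against 41.57 and 38.86 TPM, differed little, with 1 value of each TAPBP group equal to 2 decimals. The log2 fold changes of HLA-E, HLA-F, TAP1 and TAPBP were 0.07, -0.04, 0.04 and 0.06. None was called, and those of HLA-E, TAP1 and TAPBP changed sign with FPKM, median ratio scaling, quantile normalization or scaled coverage. The transporter ratio TAP1 to TAP2 was 1.34 in both controls and 2.22 and 2.15 under the label, and in scaled coverage 1.49 and 1.48 against 1.78 and 1.75. CDH5 was at 4.85 and 4.75 TPM in these controls and at 0.0316 and 0.0293 TPM under the label, VIM (vimentin) and GATA3 were called higher and KRT19 (keratin 19) lower, and their part in these results was not tested.

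**Figure D4:**
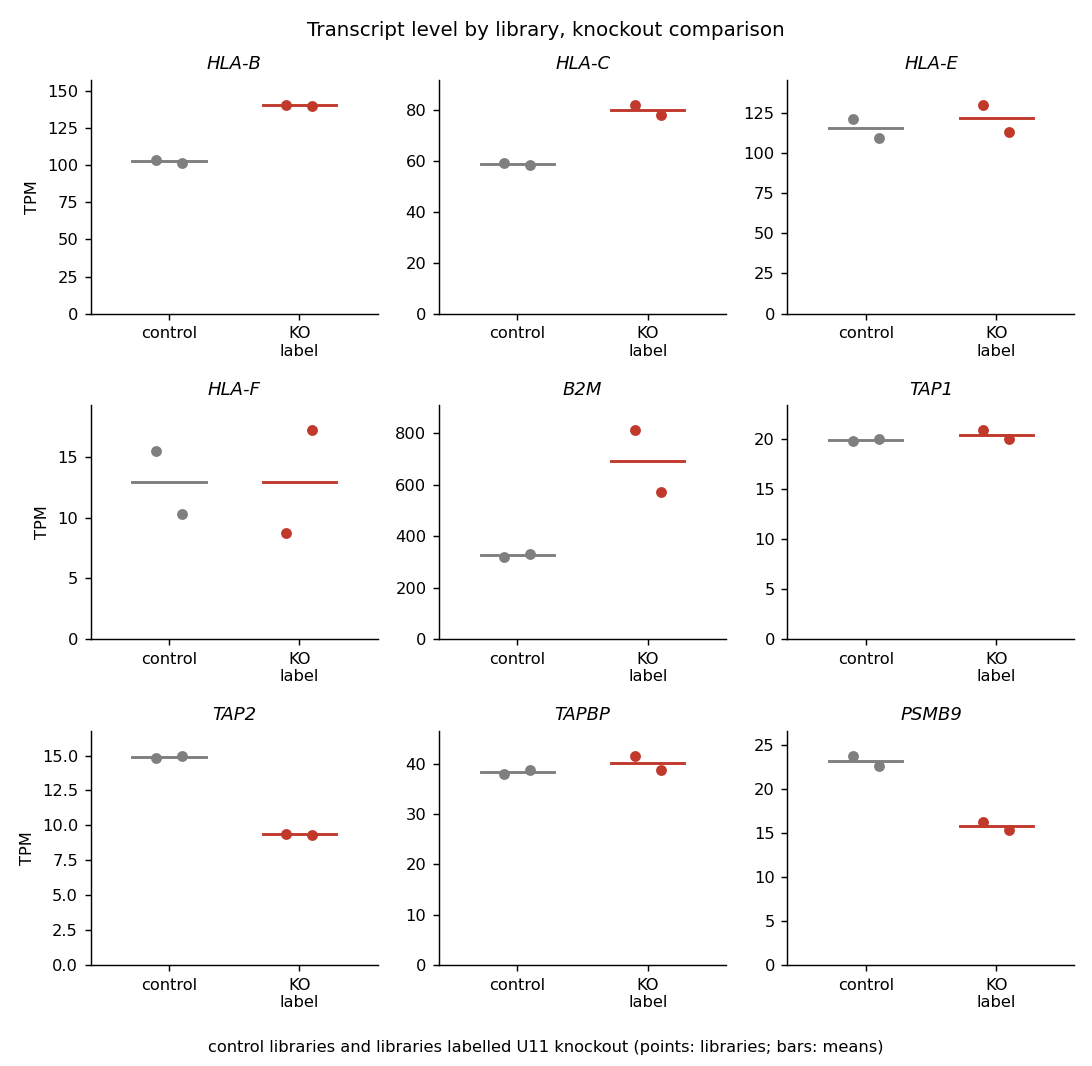
TPM of the 9 genes in the 4 libraries of the knockout comparison, with one panel per gene and a linear axis from 0. Points are libraries and bars are group means (n = 2). B2M stood at 319.8 and 331.4 TPM in the controls, against 573.3 and 810.9 TPM under the knockout label, and TAP2 fell from 14.79 and 14.96 TPM to 9.413 and 9.29 TPM.

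The knockout label difference and the mean difference of the 3 line labels, each against its own controls, were compared in a fit of all 12 libraries. Their difference had an adjusted P under 0.05 (limma) for 4 of the 9 genes, against 11.9% of all genes. HLA-B differed by 1.77 on the log2 scale (limma adjusted P = 9.5e-06), B2M by 1.49 (limma adjusted P = 0.00213), HLA-C by 1.10 (limma adjusted P = 0.000591) and TAP1 by 0.52 (limma adjusted P = 0.0372), each higher under the knockout label. TAP1 did not pass with FPKM, median ratio scaling, quantile normalization or no filter. PSMB9 was called in neither comparison (-0.52 and -0.63), and the difference was 0.11 (95% confidence interval -0.14 to 0.35). The labels name poly(A) RNA for all libraries and the study's methods name depletion of ribosomal RNA. The share of TPM in the most abundant genes differed between the comparisons, as given above, and its part in this difference was not tested.

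The other genes of the pathway were read from lists. Of 5 further genes of the immunoproteasome and the proteasome activator (PSMB8, PSMB10, PSME1, PSME2 and PSME3), none was called under the knockout label, in the overexpression comparison or under any line label. PSMB8, which overlaps PSMB9 on the opposite strand in the deposited coordinates, was at 93.1 and 89.9 TPM in the overexpression controls, at 71.4 and 70.9 TPM under 79, at 75.2 and 73.7 TPM under 86 and above both controls under 87. These values differed between the line labels by the F test (limma adjusted P = 0.00631). PSME1 and PSME2, the 2 subunits of the interferon-inducible activator, also did (limma adjusted P = 0.0176 and 0.0235). None of the 3 constitutive catalytic subunits (PSMB5, PSMB6 and PSMB7) and none of 6 genes of peptide loading and trimming, which include ERAP1 and CALR, was called in these comparisons with controls. By the F test between line labels, PSMB7 (limma adjusted P = 0.00073) and PDIA3 (0.0476) differed.

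Of 12 regulators of class I transcription 11 were tested, and 2 were called lower in the overexpression comparison, against 1.16% of all genes tested. By line label, the share of all genes called lower was 5.52% for 79, 2.01% for 86 and 3.05% for 87. IRF1, a transcription factor of the interferon response, was at 22.0 and 22.5 TPM in the controls and between 10.3 and 21.1 TPM under the line labels (log2 fold change -0.74, limma adjusted P = 0.587). IRF9, the DNA-binding part of the ISGF3 complex, was at 29.4 and 25.8 TPM in the controls and between 10.6 and 25.9 TPM under the line labels (-0.91, limma adjusted P = 0.546). Under 79 both were called lower (limma adjusted P = 0.0385 and 0.0288). IRF1 was also called lower under 87 (-0.88, limma adjusted P = 0.0892) and IRF9 under 86 (-1.0, limma adjusted P = 0.138). NLRC5, the class I transactivator, was at 13.5 and 16.1 TPM in the controls and between 10.4 and 16.4 TPM under the line labels, and was not called for any of them. RFXAP, a subunit of the RFX complex, was called lower under 87 (-0.62, limma adjusted P = 0.0251). Under the knockout label no regulator was called.

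Under the knockout label 8.61% of all genes tested were called higher and 3.15% lower, and the calls below stand beside these shares. Of 7 interferon receptor and kinase genes, JAK2 was called higher under the knockout label (0.64, limma adjusted P = 0.0799) and none in the overexpression comparison. Of 4 tested ligands of the natural killer receptor NKG2D, ULBP2 was called higher under the knockout label (0.89, limma adjusted P = 0.0217). It was at 11.3 and 12.3 TPM in the controls and 23.0 and 22.7 TPM under the label. Of the 3 tested members of a list of other class I-like genes, MR1 and HFE were called higher under the knockout label (0.92 and 0.63, limma adjusted P = 0.0296 and 0.105), and none in the overexpression comparison. Of the class II list, 2 of 6 genes were abundant enough to test. CD74, the invariant chain of class II molecules, was at 5.46 and 4.35 TPM in the knockout controls and at 0.249 and 0.289 TPM under the label (-2.21, limma adjusted P = 0.0074). In the overexpression comparison CD74 was at 14.4 and 13.2 TPM in the controls, 3.16 and 3.33 TPM under 79, 4.01 and 4.43 TPM under 86 and 10.8 and 9.52 TPM under 87. It was called lower under 79 and 86 (-1.80 and -1.51, limma adjusted P = 0.000468 and 0.00295), and over the 6 libraries (-1.24, limma adjusted P = 0.645). HLA-DPA1 was called lower under 87 (-1.15, limma adjusted P = 0.00364), where it stood at 4.3 and 3.56 TPM against 9.65 and 10.1 TPM in the controls.

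The genes whose pattern was most like that of the 9 genes were ranked by Pearson correlation with the mean log2(TPM + 1) of the 9 over the 8 libraries of the overexpression comparison. That mean was 6.83 and 6.73 in the controls, 6.17 and 6.05 under 79, 6.12 and 6.15 under 86 and 6.59 and 6.50 under 87. Among 9419 protein-coding genes, the closest were OAS3 (r = 0.981), CD74 (0.979), PARP14 (0.968), MX1 (0.964) and CABLES1 (0.961). The 8 libraries form 4 groups and share their controls, so r is a description. MX1 was at 27.4 and 24.5 TPM in the controls, 3.16 and 4.93 TPM under 79, 5.07 and 4.85 TPM under 86 and 13.0 and 13.4 TPM under 87. OAS3 was at 70.5 and 63.9 TPM in the controls, 34.8 and 33.0 TPM under 79, 36.8 and 34.0 TPM under 86 and 48.1 and 48.2 TPM under 87. In both genes, as in HLA-B, line labels 79 and 86 lay lowest and line label 87 between them and the controls. Both were picked for their likeness to the 9 genes over these same libraries, so the shared order follows from that choice.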

How the data were processed

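The members and gene lists were chosen with earlier results of these data known. Reads were aligned by the authors with Hisat2, and expression was estimated per library with Stringtie. The submitters' processing notes name hg38. Per the file headers, the authors deposited coverage, FPKM and TPM per gene. FPKM scales fragments by transcript length and depth, and TPM scales them to one total per library. DESeq2, which the study's methods name, needs read counts and was not run. Only the gene names of the list were used as members. Class I genes outside the members and the fixed lists were not analysed here.

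The tests used R 4.3.3 and limma 3.58.1, whose lmFit and eBayes (with trend) were run on log2(TPM + 1), so that changes of low genes are understated. A gene entered a test when 2 or more of its libraries reached 1 TPM, and P-values were adjusted by Benjamini-Hochberg over all of them. Calls needed a fold change of 1.5 or more besides an unadjusted P under 0.05, as in the study's methods. The differences between line labels and between the comparisons were called at an adjusted P under 0.05. The 3 line labels were fitted as groups with their controls in one fit of 8 libraries. The coverage that the authors deposited was divided by the gigabases of the library, which were read from the upper limit of coverage per FPKM, to give scaled coverage. TPM keeps no depth, so no counting interval was given, and precision came from the spread between libraries.

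The genes named are the 9 members, the members of fixed lists called in either comparison or under a line label, and the 5 protein-coding genes of unique symbol, with a mean of at least 5 TPM, that correlated best with the members. PSMB8, PSME1, PSME2, NLRC5, OAS3 and MX1 values and the markers CDH5, PECAM1 and VWF were singled out after their values were seen, some of them outside this rule. HLA genes vary between people, and the share of reads that one reference sequence fails to align was not measured. Shared stretches of 100 bases were counted between the MANE transcripts of the members and the transcripts of other genes in GENCODE. The alternatives were a pseudocount of 0.1, FPKM, median ratio scaling, quantile normalization, other filters, no trend, all 12 libraries in one fit, the mean of each line label, blocks, other thresholds and each library left out in turn. Scaled coverage, and the alternatives for the differences between line labels and between comparisons, were chosen after seeing the data. Analyses used Python 3.11.15, numpy 2.4.6, pandas 2.3.3 and matplotlib 3.10.9.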

Additional observations from a re-analysis of the deposited data

Results flagged for a closer look

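Effects under the same contrast differed between line labels in 5 genes by the limma F test, PSMB9 (adjusted P = 0.00107), HLA-B (0.00231), B2M (0.0106), HLA-C (0.0188) and TAPBP (0.0279). The knockout label and the line labels, each against its own controls, differed in 4 genes by a limma contrast, HLA-B (adjusted P = 9.5e-06), HLA-C (0.000591), B2M (0.00213) and TAP1 (0.0372). Among the 6 overexpression libraries no member had a library that stood apart by Dixon's test, where the largest gap was 0.341 of the range. The test pooled the line labels, whose levels differed in 5 genes, so it cannot show that libraries of the same line label were alike.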

How the results depend on the processing

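Of 954 values for single genes under the alternatives, 874 kept their direction and their side of the threshold, 20 passed it newly, 23 no longer passed it and 37 changed sign, none of them called in either setting. Under the knockout label the count called higher was 3 with no fold threshold in place of 1. The count called lower was 2 in place of 1 with no fold threshold, FPKM, median ratio scaling and quantile normalization, where PSMB9 joined, and 0 with scaled coverage and a pseudocount of 0.1. In the overexpression comparison 3 became 0 after adjustment. HLA-B there ran from -1.41 to -1.25 on the log2 scale, with an adjusted P from 1.36e-05 to 0.792 (limma). Under line label 87 the count called lower was 4 with no fold threshold. It was 1 in place of 2 after adjustment, with median ratio scaling, no filter, no trend, all 12 libraries in one fit and a library batch block, and 1 to 2 when single libraries were left out, since HLA-F was lost without either control or without the second library of line label 87. The count that differed between line labels was 3 in place of 5 with no filter, 8 with scaled coverage, and from 2 to 5 with single libraries left out, the lowest without the first library of line label 79 and 3 without either library of line label 87. Where leaving out a library left 1 in a group, that library was assumed to vary like the others. The cause of these changes was not tested.

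Signs changed as follows, on the log2 scale. Under the knockout label HLA-E was at -0.03 with FPKM, -0.08 with median ratio scaling, -0.00 with quantile normalization and -0.03 with scaled coverage, TAP1 at -0.06, -0.11, -0.06 and -0.07, and TAPBP at -0.04, -0.08, -0.01 and -0.04. With the same 4 settings the difference between the comparisons was -0.03, -0.09, -0.02 and -0.03 for TAPBP, and with the first 3 it was -0.01, -0.07 and -0.07 for PSMB9. In the overexpression comparison TAPBP was at 0.00 with median ratio scaling and quantile normalization, and TAP2 under 79 at 0.00 with quantile normalization. With single libraries left out, HLA-F ran from -0.48 to 0.41 and HLA-E from -0.03 to 0.17 under the knockout label. In the overexpression comparison TAP2 ran from -0.44 to 0.23 and TAPBP from -0.06 to 0.02, B2M under 86 from -0.12 to 0.03 and HLA-E under 87 from -0.11 to 0.04. TAP2 ran from -0.38 to 0.29 under 79 and from -0.04 to 0.64 under 87, with the extremes on leaving out a control.

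The knockout libraries and their controls share the replicate numbers 1 and 2. Deviations from the group means correlated by 0.02 over 14356 genes between same-numbered libraries, so the numbers were not taken to pair the samples. With a replicate block the counts stayed at 1 higher and 1 lower, while the adjusted P was 0.0681 for B2M, 0.133 for TAP2, 0.11 for HLA-B and 0.133 for HLA-C (limma). Each gene had a single entry under its symbol, so summing entries could give no other value. The precision is limited by 2 libraries per group and line label.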
